A study of Homo sapiens and Canis lupus familiaris with 27 samples.

Results

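The 10 genes described here act on microtubules or fold their building block: STMN1, STMN3, MAP4, MAP7, MAP1B, MAPRE1, ARHGEF2, TTC5, TBCA and TBCD. They were taken by name from the count tables, which listed 10 of them among 23708 genes in each human cell line and 9 among 16028 genes in the canine line, where TBCD was not found under this symbol. The study treated 3 prostate carcinoma lines with PDA-66, an indolylmaleimide, at 15 µM for 12 h or 24 h. Cells kept in 0.15% DMSO, the solvent, for 24 h were the controls. PC-3 is a human line from a bone marrow metastasis, LNCaP is another human prostate carcinoma line, and CT1258 comes from a canine prostate carcinoma. All libraries were made from poly(A) RNA, and each line is a single established culture, so the samples of a group show the spread of that culture and not of patients or dogs. With no control collected at 12 h, PDA-66 and time in culture cannot be told apart in the 12 h comparisons. Labels gave 3 samples per group, but PC-3 control replicate 1 was not used, which left 2 PC-3 controls and 26 samples. The study's methods state that 1 PC-3 control was dropped as an outlier on a plot of expression distances between samples.

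Microtubules are hollow polymers of alpha and beta tubulin dimers that grow and shrink at their ends and build the mitotic spindle. New tubulin is folded by the cytosolic chaperonin with prefoldin and then joined into dimers by tubulin cofactors, which include TBCA and TBCD. Stathmins hold free dimers, MAPs bind along the polymer, and end-binding proteins such as MAPRE1 (EB1) track the growing tip. ARHGEF2 (GEF-H1), an activator of the small GTPase RhoA, is held inactive on microtubules. TTC5 recognises tubulin chains as they leave the ribosome and sends the tubulin mRNA to decay when free dimers are in excess.

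Human promoters are shown for STMN1, MAPRE1 and TTC5. STMN1 was picked on its motif matches, since 1 of its promoters held the most. MAPRE1 was called in PC-3 and CT1258, and the response of TTC5 in CT1258 differed from that of either human line. All 10 members matched RefSeq (GRCh38.p14), with 21 promoters of 250 bases before to 50 bases after a start site. The 250 bases before the start are given below, 5′ to 3′ on the strand of the gene, with matches to CCAAT, the E-box CACGTG, the E2F site TTTGGCGC or TTTCGCGC and the CHR element TTTGAA in capitals. Both strands were searched, so that ATTGG is CCAAT on the other strand. STMN1 lies at chr1:25906420-25906669 on the minus strand, MAPRE1 at chr20:32819704-32819953 on the plus strand and TTC5 at chr14:20305952-20306201 on the minus strand.
STMN1: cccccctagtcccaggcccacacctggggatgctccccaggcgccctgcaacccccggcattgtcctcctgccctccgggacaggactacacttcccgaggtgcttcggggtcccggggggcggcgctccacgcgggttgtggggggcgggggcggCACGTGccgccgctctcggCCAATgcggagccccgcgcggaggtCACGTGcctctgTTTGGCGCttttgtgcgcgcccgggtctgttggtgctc
MAPRE1: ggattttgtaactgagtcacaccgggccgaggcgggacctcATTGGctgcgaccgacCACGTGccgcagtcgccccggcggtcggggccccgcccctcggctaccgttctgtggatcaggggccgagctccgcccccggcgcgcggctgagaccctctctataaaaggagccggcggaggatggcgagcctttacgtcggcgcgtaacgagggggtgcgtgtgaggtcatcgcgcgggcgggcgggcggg
TTC5: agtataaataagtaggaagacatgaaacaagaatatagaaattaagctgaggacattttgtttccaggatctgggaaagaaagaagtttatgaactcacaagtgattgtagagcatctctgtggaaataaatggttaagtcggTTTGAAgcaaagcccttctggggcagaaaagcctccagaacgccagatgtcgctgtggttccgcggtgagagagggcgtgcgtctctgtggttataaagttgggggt

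In this STMN1 promoter, 1 of 3 listed for the gene, the E2F site began 38 bases before the start, and 2 E-boxes and 1 CCAAT box lay upstream of it. The other promoters of STMN1 held no match to these motifs. MAPRE1 also held a CHR element that began at base 9 of the transcribed part, which is not printed. The single match of TTC5 was a CHR element, 107 bases before the start. An E2F site was found in a promoter of 3 of the 10 members, a CHR element in 5, a CCAAT box in 5 and an E-box in 2. Per promoter, the shares of the 21 were 14.3% for the E2F site, 28.6% for CHR, 23.8% for CCAAT and 9.52% for the E-box. Among all 35116 promoters of the same length, they were 1.15% for the E2F site, 15.2% for CHR, 34.6% for CCAAT and 7.26% for the E-box. The core of the amino acid response element (TGATGNAAN, in 3.61% of all promoters) and the cAMP response element (TGACGTCA, in 1.85%) were not found in the 21 promoters. These are matches of letters in human sequence, and the canine promoters were not analysed here.

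CT1258 samples had total counts from 7203534 to 20976950, and their DMSO libraries were 2.64 times as deep as their PDA-66 libraries. Every CT1258 control was deeper than every PDA-66 sample of that line, so depth and PDA-66 cannot be told apart there. LNCaP totals ran from 11923105 to 14741883, and PC-3 totals from 14650839 to 18091755. Levels below are CPM, that is, counts scaled to a common library size after TMM, a correction of that size. LNCaP PDA-66 12 h replicate 2 stood apart from the other 2 libraries of its group: the chi-square of its counts against replicate 1 was 216 per degree of freedom, while the closest pair of replicates in any group, in CT1258, had 1.57. In that library COL1A1, a fibroblast collagen named after its value was seen, was at 125 CPM against 18.5 and 18.8 CPM. The 6 fibroblast, endothelial and immune markers summed to 29.9 to 139 CPM over its group, with PECAM1 at 0 in all 3 samples. Other lists also spread in this group: the 5 epithelial markers summed to 1334 to 2039 CPM and the 5 neuronal markers to 68.4 to 186 CPM. The part of these markers in the members' values was not tested. Controls also differed among themselves: CT1258 DMSO replicate 2 had 50.7 and 50.9 per degree of freedom against its partners, which had 3.81 between them, the LNCaP controls had 16.4 to 34.5 and the PC-3 pair 35.2. No pair was close enough to be a library deposited again. Values that these libraries decide are given with and without them. The spread between replicates, as a biological coefficient of variation, was 0.24 for LNCaP, against 0.0971 for PC-3 and 0.1 for CT1258. Of 5 epithelial markers only EPCAM was listed in CT1258, at 0 in the controls, so that table gives no check of an epithelial origin.

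In untreated cells the transcripts were compared per length of the main transcript, which only the human annotation allowed. STMN1 led in PC-3 with 276 ± 52.1 CPM per kilobase (SD, n = 2), followed by MAPRE1 with 99.2 ± 9.95 and TBCA with 90.4 ± 23.3. MAPRE1 and TBCA overlapped between samples, and so did TBCA and MAP4, which had 66.5 ± 16.8 CPM per kilobase. TTC5 was lowest in PC-3 with 3.33 ± 0.0315 CPM per kilobase. LNCaP put TBCA first, with 182 ± 32.9 CPM per kilobase (SD, n = 3). Behind it STMN1 (79.2 ± 33.4), MAPRE1 (58.9 ± 9.53) and MAP4 (48.3 ± 5.19 CPM per kilobase) overlapped with their neighbours in the order. The lowest place in LNCaP belonged to STMN3 with 1.43 ± 0.345 CPM per kilobase, below TTC5 with 5.48 ± 0.143.

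**Figure D1:**
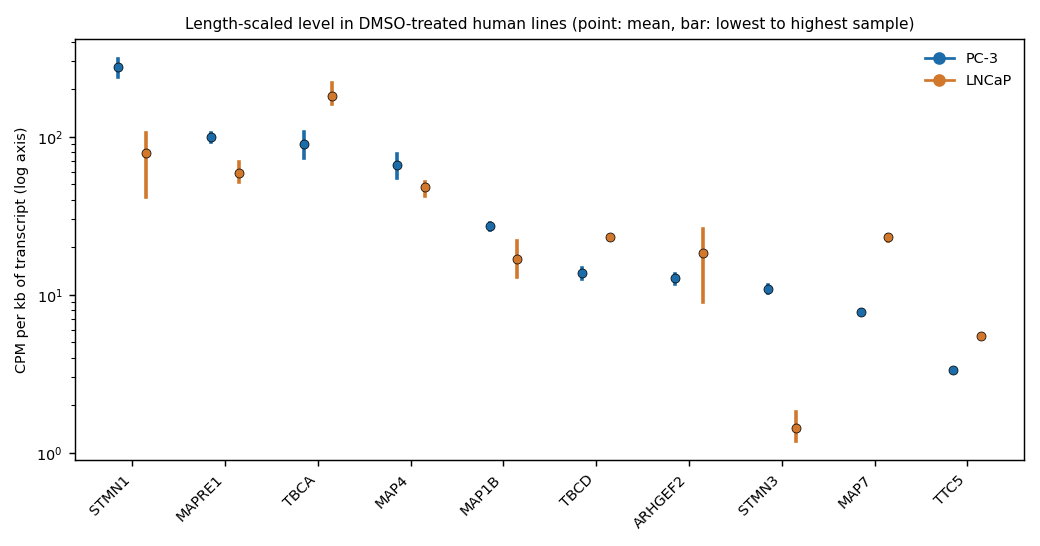
Length-scaled levels (CPM per kilobase of transcript, log axis) of the 10 genes in DMSO-treated PC-3 (n = 2) and LNCaP (n = 3), with points for the mean and bars from the lowest to the highest sample. STMN1 reached 276 in PC-3 against 79.2 in LNCaP, and STMN3 10.9 against 1.43.

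Between the untreated human lines, 4 of the 10 members differed (adjusted p below 0.001, edgeR quasi-likelihood test over both tables), against 40.8% of the 15018 genes tested. Both stathmins were higher in PC-3. STMN1, which sequesters tubulin dimers, had 345 and 451 CPM in the PC-3 controls and 153, 130 and 60.3 CPM in the LNCaP controls, a 3.48-fold difference (log2 1.80 ± 0.27 SE, adjusted p = 2.32e-05). STMN3, a stathmin best known from neurons, had 26.0 and 23.0 CPM against 2.67, 2.86 and 4.10 CPM, which is 7.62-fold higher in PC-3 (log2 2.93 ± 0.42 SE, adjusted p = 1.28e-05). The end-binding gene MAPRE1 was 1.68-fold higher in PC-3 (adjusted p = 0.000387), and this call was lost without any single PC-3 control (adjusted p = 0.00818 and 0.00107) or without LNCaP DMSO replicate 2 (0.00237) or replicate 3 (0.00264).

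MAP7, a partner of the motor kinesin-1, was the only member called as lower in PC-3. Its CPM were 30.2 and 28.4 in PC-3 and 89.1, 82.4 and 89.2 in LNCaP, so that the PC-3 level was 0.338 times the LNCaP level (log2 -1.57 ± 0.16 SE, adjusted p = 2.31e-07). TBCA, TBCD and TTC5 had 0.498, 0.59 and 0.607 times the LNCaP level in PC-3, short of the threshold (adjusted p = 0.00117, 0.0257 and 0.00377). At an adjusted p below 0.05, 9 of 10 members differed, all but ARHGEF2, against 63.6% of all genes. Cell line, medium and library preparation cannot be told apart in this comparison.

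In PC-3 cells PDA-66 changed 1 of the 10 members at 12 h and 1 at 24 h, where 27.6% and 19.3% of all tested genes changed. CT1258 showed 4 called members of 7 tested at either time, against 44.3% and 33.8% of its genes. For LNCaP the count was 0 of 10 at both times, and 0.0076% and 0% of its genes were called. The members' count was thus below the share of all genes in PC-3, and in CT1258 4 of 7 lay somewhat above it. At the looser adjusted p below 0.05 the counts were 3 and 4 in PC-3 (57% and 49.9% of all genes), 6 and 5 in CT1258 (69.8% and 62.1%), and 1 and 0 in LNCaP (9.14% and 2.92%). Groups did not overlap for 6 and 5 members in PC-3 (70.9% and 61.9% of all genes). The same held for 7 and 6 in CT1258 (72.8% and 66.3%) and for 2 and 4 in LNCaP (28.1% and 44.7%).

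Median log2 fold changes of the members at 12 h were 0.185 for PC-3, 0.344 for LNCaP and 0.484 for CT1258, beside medians over all genes of -0.00516, 0.0256 and -0.00246. Without LNCaP PDA-66 12 h replicate 2 the LNCaP median was -0.0248, and without CT1258 DMSO replicate 2 the CT1258 median was 0.324. At 24 h they were 0.279, 0.0509 and 0.15, beside -0.0104, -0.0109 and -0.00683, and the CT1258 median was 0.0837 without that control. Both PDA-66 groups of a line share its DMSO samples, so that the 12 h and 24 h values are not independent. STMN3 and MAP7 were listed in CT1258 but were too low to be tested. STMN3 there was at 1.09 to 1.34 CPM in the controls and 0.266 to 0.950 CPM after PDA-66, and MAP7 was at most 0.695 CPM in any CT1258 sample.

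The absence of calls in LNCaP came with the largest spread between replicates of the 3 lines. The study's own edgeR analysis reported called genes in LNCaP at the same threshold, though fewer than in the other lines. With the edgeR fit used here, 5 of the 10 members had an unadjusted p below 0.05 at 12 h and 3 at 24 h. DESeq2 called 1 member at 12 h and 0 at 24 h, and limma voom with sample weights called 3 and 2. Shares of all genes at an unadjusted p, or by DESeq2 and limma voom, are not given here or below. Such counts are therefore no sign of an excess among the members or lists. The 1 member that edgeR called at 12 h with an adjusted p below 0.05 was STMN1.

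Between 12 h and 24 h of PDA-66, edgeR called 1 member in CT1258, ARHGEF2, against 2.13% of all genes, and 4 at an adjusted p below 0.05 (19.3%). In PC-3 it called 0 (1.41% of all genes), with 2 members at an unadjusted p below 0.05 and 1 at an adjusted p below 0.05 (10.1%), while DESeq2 called 0 and limma voom 1. LNCaP had 0 by each tool, with 0 members at an unadjusted p below 0.05, and 0% of its genes were called. Groups did not overlap between the times for 4 members in PC-3 (37.3% of all genes), 6 in CT1258 (46.1%) and 3 in LNCaP (18.5%).

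**Figure D2:**
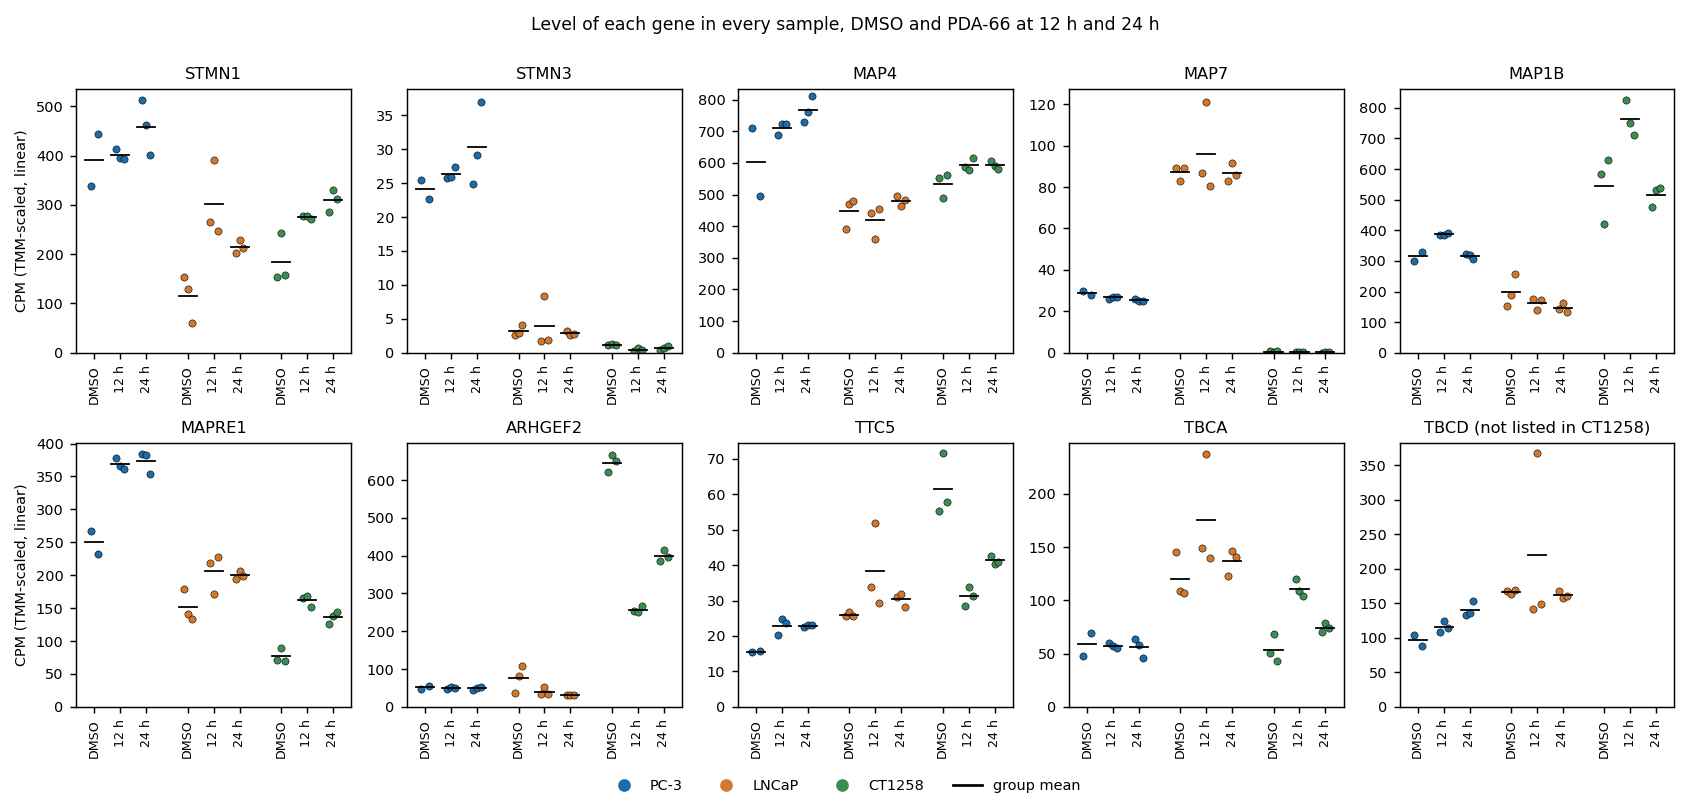
CPM (TMM-scaled, linear axes from 0) of each gene in every sample, by line and group, with a bar for the group mean. ARHGEF2 in CT1258 went from 622 to 665 CPM in DMSO to 252 to 266 CPM at 12 h, and 1 LNCaP sample at 12 h stands apart in several panels, with 367 CPM for TBCD.

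MAPRE1 encodes EB1, which marks growing microtubule ends (chr20:31407760-31438211, plus strand, GRCh37, 7 exons). It was the one member called in PC-3 and was also called in CT1258 at both times. PC-3 controls had 267 and 232 CPM. After 12 h the samples had 379, 367 and 361 CPM, and after 24 h 384, 383 and 354 CPM. Every PDA-66 sample was above both controls, a rise of 1.48-fold at 12 h (log2 0.56 ± 0.098 SE, adjusted p = 0.0003) and 1.497-fold at 24 h (log2 0.58 ± 0.098 SE, adjusted p = 0.000323). These calls are close to the threshold: leaving out 1 sample at a time kept the log2 fold change between 0.47 and 0.67 at 12 h, but the adjusted p passed 0.001 in 4 of 8 such fits and in 3 of 8 at 24 h. Both calls were also lost when only the groups compared were fitted (adjusted p = 0.00172 and 0.00284).

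In CT1258 the MAPRE1 controls had 70.9, 89.8 and 70.0 CPM. The 12 h samples had 165, 168 and 152 CPM and the 24 h samples 126, 138 and 144 CPM. With no overlap between the groups, MAPRE1 rose 2.10-fold at 12 h (log2 1.07 ± 0.10 SE, adjusted p = 7.36e-07) and 1.76-fold at 24 h (log2 0.82 ± 0.10 SE, adjusted p = 1.42e-05). Without DMSO replicate 2 the values were 1.19 and 0.94. LNCaP samples had 179, 142 and 133 CPM in DMSO, 218, 171 and 227 CPM at 12 h, and 195, 207 and 198 CPM at 24 h. The log2 fold changes in LNCaP were 0.45 ± 0.17 and 0.40 ± 0.17 SE and did not pass the threshold in edgeR (adjusted p = 0.122 and 0.222), while limma voom called the 12 h value (0.66, adjusted p = 0.000104). Without the 12 h replicate 2 the first was 0.56 (adjusted p = 0.00849). Between PC-3 and LNCaP the difference in this response did not exceed its error, at 0.15 ± 0.19 SE on the log2 scale at 12 h (adjusted p = 0.636). LNCaP responded less than CT1258 at 12 h, by a log2 difference of -0.67 ± 0.18 SE (adjusted p = 0.00566). PC-3 minus CT1258 was -0.52 ± 0.19 SE (adjusted p = 0.0435), a call lost in 15 of 17 fits without 1 sample (adjusted p up to 0.144) and without the filter (0.0893). Reads shared with the 3 annotated processed copies of MAPRE1 could not be separated here, and how they were counted is not given in the sources used here.

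Its relatives are MAPRE2 (EB2) and MAPRE3 (EB3), named here after their values were seen. In PC-3, MAPRE2 rose at 24 h (log2 0.67 ± 0.12 SE, adjusted p = 0.000592), and its 12 h value was 0.57 ± 0.12 (adjusted p = 0.00130). In CT1258, MAPRE2 rose at 12 h (log2 0.58 ± 0.12 SE, adjusted p = 0.000510) while MAPRE3 fell (log2 -0.49 ± 0.10 SE, adjusted p = 0.000609).

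STMN1 encodes stathmin, which binds free dimers and favours disassembly, and is high in dividing cells (chr1:26210672-26233482, minus strand, GRCh37). LNCaP controls had 153, 130 and 60.1 CPM. They were followed by 266, 392 and 247 CPM at 12 h and 203, 228 and 214 CPM at 24 h. All 6 PDA-66 samples lay above the 3 controls, with 2.63-fold the control level at 12 h (log2 1.40 ± 0.32 SE, adjusted p = 0.0276) and 1.88-fold at 24 h (log2 0.91 ± 0.31 SE, adjusted p = 0.146). Neither passed the threshold in edgeR. DESeq2 called the 12 h value (1.41, adjusted p = 0.000676), and limma voom called both (1.48, adjusted p = 2.23e-05, and 1.25, adjusted p = 9.18e-05). In edgeR, without the 12 h replicate 2 the 12 h value was 1.17 (adjusted p = 0.0119), and without control replicate 3, the lowest, it was 1.09 (adjusted p = 0.0575).

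CT1258 controls had 153, 244 and 158 CPM of STMN1. The levels were 277, 277 and 271 CPM at 12 h and 287, 330 and 313 CPM at 24 h. STMN1 rose at 24 h (1.68-fold, log2 0.75 ± 0.14 SE, adjusted p = 0.000471), and the 12 h value of 0.57 ± 0.14 was just outside the threshold (adjusted p = 0.00271). Control replicate 2 decided this: without it the values were 0.82 at 12 h (adjusted p = 7.72e-10) and 0.99 at 24 h (adjusted p = 7.38e-11). Without either of the other 2 controls the 24 h call was lost (adjusted p = 0.00167 and 0.00215), as it was without any of the 24 h samples (0.00165, 0.00347 and 0.00257) or without 12 h replicate 1 (0.00103) or 3 (0.00129).

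PC-3, the line with the highest STMN1 level, had 339 and 444 CPM in DMSO, 394 to 414 CPM at 12 h and 401 to 512 CPM at 24 h. The groups overlapped and the log2 fold changes were 0.03 ± 0.13 and 0.23 ± 0.13 SE (adjusted p = 0.838 and 0.154). The 12 h response of PC-3 was lower than that of LNCaP by a tested log2 difference of -1.33 ± 0.34 SE (adjusted p = 0.00772). Summed proliferation markers were higher after PDA-66 in all 3 lines, also in PC-3, where the STMN1 groups overlapped. Of 7 such markers, 6 rose in CT1258 at 12 h, and 5 rose and 1 fell at 24 h. The one that fell was MCM2, a replication licensing factor named after its value was seen (log2 -0.53 ± 0.080 SE, adjusted p = 7e-05). In PC-3 2 and 3 rose. LNCaP had 0 by edgeR, with 5 at an adjusted p below 0.05 at 12 h and 2 at 24 h. Their summed level went from 1036 to 1251 CPM in the CT1258 controls to 2666 to 2897 CPM at 12 h, and from 483 to 1001 CPM in the LNCaP controls to 1702 to 2114 CPM at 12 h. In PC-3 the sum went from 1125 to 1215 CPM to 1586 to 1645 CPM, and none of the 7 markers was at 0 in any group. Their part in the values of STMN1 was not tested, and in bulk RNA more cells of a kind and more RNA per cell cannot be told apart.

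STMN3 stayed between 22.7 and 37.0 CPM in all PC-3 samples. Its log2 fold changes there were 0.13 ± 0.15 and 0.33 ± 0.15 SE (adjusted p = 0.470 and 0.0815). LNCaP had 1.73 to 4.09 CPM in 8 of its 9 samples and 8.32 CPM in the 12 h replicate 2, whose removal turned the 12 h log2 fold change from 0.29 to -0.81 (adjusted p = 0.739 and 0.0411). The neuronal marker SNAP25 was at most 0.122 CPM in any sample of the 3 lines. The whole list of 5 neuronal markers summed to 434 to 456 CPM in the PC-3 controls and 88.4 to 103 CPM in the LNCaP controls, and its part in STMN3 was not tested.

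MAP4 is the main MAP of cells that are not neurons. None of its changes passed the threshold in any line. Its levels ran from 497 to 810 CPM in PC-3, from 359 to 494 CPM in LNCaP and from 490 to 614 CPM in CT1258. Log2 fold changes lay between -0.10 and 0.35 in the 6 comparisons with DMSO, the lowest being LNCaP at 12 h, which was 0.0072 without replicate 2, and the smallest adjusted p was 0.0413, at 24 h in PC-3. The 2 PC-3 controls, at 711 and 497 CPM, decided that value: without control replicate 2 it was 0.63 (adjusted p = 5.58e-05), and 0.53 at 12 h (adjusted p = 0.000178), while without control replicate 3 it was 0.13 (adjusted p = 0.222).

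MAP7 was near 0 in CT1258, as given above, and no change passed the threshold in the human lines. PC-3 had 28.0 and 29.7 CPM in DMSO and 24.9 to 27.1 CPM after PDA-66. LNCaP had 82.9 to 89.3 CPM in DMSO and 80.3 to 91.6 CPM after PDA-66 apart from 121 CPM in the 12 h replicate 2. The log2 fold changes were -0.11 and -0.19 in PC-3 and 0.14 and -0.0029 in LNCaP, and the smallest adjusted p was 0.138. The 12 h value in LNCaP was -0.057 without replicate 2.

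MAP1B, best known as a MAP of growing axons, had a higher mean at 12 h than at 24 h in every line. The samples of these times did not overlap in PC-3 and CT1258. CT1258 had 585, 422 and 629 CPM in DMSO, 826, 751 and 712 CPM at 12 h and 475, 533 and 539 CPM at 24 h. The 12 h samples were above all others, with log2 0.48 ± 0.13 SE against DMSO (adjusted p = 0.00354) and -0.56 ± 0.13 SE for 24 h against 12 h (adjusted p = 0.00742). Neither value passed the threshold, and without DMSO replicate 2 both did: 0.32 (adjusted p = 0.000618) and -0.57 (adjusted p = 1.88e-06). PC-3 had 299 and 331 CPM, then 385, 383 and 392 CPM, then 324, 319 and 306 CPM, with the 12 h samples again highest (log2 0.30 ± 0.091 SE, adjusted p = 0.0130). For 24 h against 12 h the PC-3 value was -0.29 ± 0.081 SE (adjusted p = 0.0381). Against DMSO, LNCaP went the other way in value. Its levels went from 152, 190 and 256 CPM to 176, 140 and 172 CPM at 12 h and 144, 162 and 132 CPM at 24 h (log2 -0.29 and -0.45, adjusted p = 0.355 and 0.258). For 24 h against 12 h the LNCaP value was -0.16 ± 0.20 SE (adjusted p = 0.795). The 12 h responses of LNCaP and CT1258 differed by -0.83 ± 0.22 SE on the log2 scale (adjusted p = 0.00532).

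ARHGEF2 showed the largest fall of a member in CT1258 (human position chr1:155916642-155976861, minus strand, GRCh37). CT1258 controls had 622, 665 and 651 CPM. Levels were 253, 252 and 266 CPM at 12 h and 385, 415 and 396 CPM at 24 h. The 3 groups did not overlap: ARHGEF2 fell to 0.398 times the control at 12 h (log2 -1.33 ± 0.076 SE, adjusted p = 8.83e-09) and stood at 0.617 times the control at 24 h (log2 -0.70 ± 0.075 SE, adjusted p = 3.73e-06). It rose 1.55-fold from 12 h to 24 h (log2 0.63 ± 0.076 SE, adjusted p = 0.000133). This last call was lost without the 12 h replicate 1 (adjusted p = 0.00201) or 2 (0.00217) and without the 24 h replicate 2 (0.00192) or 3 (0.00163), and both calls against DMSO stood in all 9 fits without 1 sample, at -1.31 and -0.68 without DMSO replicate 2.

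LNCaP controls spread widely in ARHGEF2, at 37.6, 82.4 and 109 CPM. They were followed by 32.9, 53.5 and 34.8 CPM at 12 h and 32.2, 30.2 and 31.0 CPM at 24 h. The 24 h samples were below every control, yet neither log2 fold change passed the threshold in edgeR (-0.92 ± 0.34 SE, adjusted p = 0.119, and -1.29 ± 0.35 SE, adjusted p = 0.0787). The limma voom fit called both (-1.26, adjusted p = 7.23e-05, and -1.41, adjusted p = 1.83e-05). The edgeR values turned on single samples: without control replicate 3, the highest, they were -0.57 (adjusted p = 0.362) and -0.94 (adjusted p = 0.296). Without control replicate 1, the lowest, they were -1.24 (adjusted p = 0.0174) and -1.61 (adjusted p = 0.0112), and without the 12 h replicate 2 the 12 h value was -1.17 (adjusted p = 0.0232). PC-3 had 48.3 and 55.9 CPM in DMSO, 46.6 to 52.6 CPM at 12 h and 44.3 to 53.2 CPM at 24 h, with log2 fold changes of -0.08 and -0.07 (adjusted p = 0.565 and 0.613). PC-3 and CT1258 differed at 12 h by 1.23 ± 0.33 SE on the log2 scale (adjusted p = 0.00695).

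TTC5, the sensor of nascent tubulin, fell in CT1258 and had values above the controls in PC-3 (human position chr14:20724717-20774119, minus strand, GRCh37). CT1258 controls had 55.3, 71.5 and 57.9 CPM. Levels were 28.4, 33.8 and 31.4 CPM at 12 h and 42.7, 40.4 and 41.0 CPM at 24 h. All PDA-66 samples were below all controls, and TTC5 fell to 0.507 times the control at 12 h (log2 -0.98 ± 0.12 SE, adjusted p = 4.57e-06) and 0.672 times at 24 h (log2 -0.57 ± 0.11 SE, adjusted p = 0.000555). Without DMSO replicate 2 the values were -0.86 and -0.46. The 24 h call was lost without the 12 h replicate 3 (adjusted p = 0.00130) or the 24 h replicate 1 (0.00250), 2 (0.00427) or 3 (0.00361).

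PC-3 had 15.4 and 15.6 CPM of TTC5 in DMSO. It had 20.3, 24.8 and 23.7 CPM at 12 h and 22.5, 23.2 and 23.1 CPM at 24 h. Every PDA-66 sample lay above both controls, but log2 0.56 ± 0.12 SE at both times stayed just outside the threshold in edgeR (adjusted p = 0.00147 and 0.00191). DESeq2 called both (adjusted p = 0.000541 and 0.0006), as did edgeR without the filter at 12 h (0.000791), and limma voom called neither. LNCaP controls were at 25.5 to 26.9 CPM, the 12 h samples at 33.7, 51.8 and 29.4 CPM and the 24 h samples at 28.2 to 31.7 CPM (log2 0.56 and 0.22, adjusted p = 0.121 and 0.636). Without the 12 h replicate 2 the 12 h value was 0.28 (adjusted p = 0.0857). The difference in response was tested: PC-3 exceeded CT1258 by log2 1.53 ± 0.23 SE at 12 h (adjusted p = 2.66e-05) and 1.13 ± 0.23 SE at 24 h (adjusted p = 0.0011), and LNCaP exceeded CT1258 by 1.48 ± 0.21 SE (adjusted p = 1.78e-05) and 0.76 ± 0.21 SE (adjusted p = 0.0129).

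TBCA binds beta tubulin as it comes off the chaperonin (human position chr5:76986991-77164604, minus strand, GRCh37). CT1258 controls had 50.2, 68.1 and 42.7 CPM. Levels were 120, 109 and 104 CPM at 12 h and 70.3, 78.6 and 73.9 CPM at 24 h. All PDA-66 samples lay above all controls, and TBCA rose 2.07-fold at 12 h (log2 1.05 ± 0.14 SE, adjusted p = 1.29e-05), with 1.25 on the log2 scale without DMSO replicate 2. The 24 h value of 0.47 ± 0.14 SE did not pass the threshold in edgeR (adjusted p = 0.00932), but did without DMSO replicate 2 (0.67, adjusted p = 5.01e-07) and in limma voom (0.69, adjusted p = 5.19e-09). PC-3 had 48.0 and 69.5 CPM in DMSO, 55.1 to 60.1 CPM at 12 h and 46.0 to 64.0 CPM at 24 h, all groups overlapping (adjusted p = 0.884 and 0.737). LNCaP had 107 to 145 CPM, then 149, 238 and 140 CPM, then 123 to 146 CPM (log2 0.55 and 0.18, adjusted p = 0.145 and 0.723), and without the 12 h replicate 2 the first was 0.27 (adjusted p = 0.179). The 12 h responses of PC-3 and CT1258 differed by log2 -1.10 ± 0.28 SE (adjusted p = 0.00496), and by -0.74 (adjusted p = 0.102) without PC-3 DMSO replicate 3. TBCA has 3 annotated processed copies whose reads could not be separated here.

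TBCD, which works with other cofactors on the beta tubulin subunit, was measured in the human lines only (chr17:80709918-80903790, plus strand, GRCh37). PC-3 had 104 and 88.3 CPM in DMSO. It had 109, 124 and 114 CPM at 12 h and 134, 135 and 153 CPM at 24 h. Every 24 h sample was above all others, and log2 0.55 ± 0.11 SE, a 1.46-fold difference, was just outside the threshold in edgeR (adjusted p = 0.00112). It passed without DMSO replicate 2 (0.68, adjusted p = 0.000242), without the filter (0.000391) and in DESeq2 (2.57e-05), but not in limma voom. LNCaP stayed between 142 and 169 CPM in 8 of 9 samples, with 367 CPM in the 12 h replicate 2. That sample set the sign of the 12 h log2 fold change, 0.40 with it (adjusted p = 0.426) and -0.19 without it (adjusted p = 0.132). On the opposite strand, B3GNTL1 overlaps 22.4% of the exon bases of TBCD. Whether counting used the strand is not given in the sources used here, so reads of the pair cannot be told apart.

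**Figure D3:**
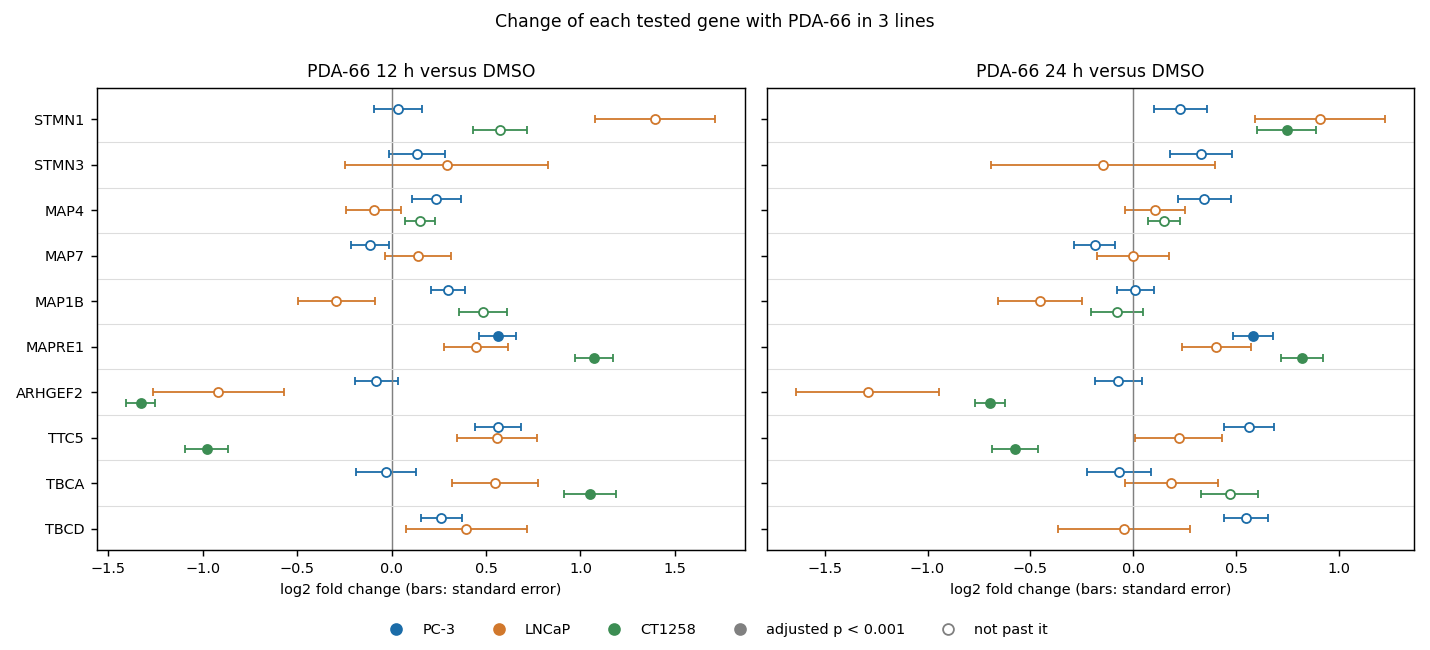
Log2 fold change against DMSO of each gene at 12 h and 24 h in the 3 lines, with bars of 1 standard error on either side and filled points for an adjusted p below 0.001 (edgeR). In CT1258 MAPRE1 and TBCA lie above 0 at 1.07 and 1.05 at 12 h and ARHGEF2 and TTC5 below it at -1.33 and -0.98, while TTC5 in PC-3 lies at 0.56.

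Differences in response between lines were tested in 1 fit over the genes that all 3 tables list, with 11736 genes tested. This fit shares the spread of a gene over all lines, although replicates of LNCaP spread more than those of the others. It also holds STMN3 and MAP7, which were too low to be tested in CT1258 by itself. At an adjusted p below 0.05, PC-3 and LNCaP differed in 1 of the 9 members in that fit, which leaves out TBCD, at 12 h (STMN1) and 1 at 24 h (ARHGEF2), where 19.6% and 9.7% of all genes differed. PC-3 and CT1258 differed in 4 of the 9 at 12 h (MAPRE1, ARHGEF2, TTC5 and TBCA) and 1 at 24 h (TTC5), against 30.1% and 21.2%. LNCaP and CT1258 differed in 3 at 12 h (MAP1B, MAPRE1 and TTC5) and 1 at 24 h (TTC5), against 40.2% and 21.1%. The 4 of 9 members exceeded the share of all genes, and the other counts were near or below it. This excess is not firm, since the call of MAPRE1 was lost in 15 of 17 fits without 1 sample. In those fits the members that differed between PC-3 and CT1258 at either time ran from 2 to 5. At an adjusted p below 0.001, TTC5 alone was called, in the 12 h comparisons with CT1258, where 9.33% of all genes differed for PC-3 and 12.8% for LNCaP. The other 4 comparisons had 0 members at that threshold, against 4.79% (PC-3 and CT1258, 24 h), 3.44% (LNCaP and CT1258, 24 h), 3.57% and 1.23% (PC-3 and LNCaP, 12 h and 24 h). Organism, medium and counting differ between CT1258 and the human lines and cannot be told apart from the cell line.

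Of the other genes of the pathway, the alpha and beta tubulins had medians below that of all genes in PC-3 and CT1258. In PC-3, 6 of 14 tested tubulins fell at 12 h and 3 at 24 h, and 0 rose by edgeR, with medians of -0.548 and -0.326 on the log2 scale. TUBA1A fell from a mean of 166 to 44.2 CPM at 12 h (log2 -1.91 ± 0.11 SE) and TUBB from 1165 to 477 CPM (log2 -1.29 ± 0.097 SE). In CT1258, 4 of 7 fell and 1 rose at 12 h, and 2 fell and 1 rose at 24 h. TUBB2B fell from 369 to 156 CPM at 12 h (log2 -1.24 ± 0.091 SE), while TUBB4A was the one that rose, from 31.1 to 89.7 CPM at 24 h (log2 1.53 ± 0.10 SE). Among all genes, 13% rose and 14.6% fell at 12 h in PC-3, and 8.88% and 10.5% at 24 h. In CT1258 22.2% rose and 22.1% fell at 12 h, and 16.6% and 17.2% at 24 h. Of 13 tubulins tested in LNCaP edgeR called 0, with 6 and 5 at an unadjusted p below 0.05 at 12 h and 24 h. At an adjusted p below 0.05, 1 was higher and 4 lower there at 12 h and 3 higher and 0 lower at 24 h, against 4.52% and 4.62%, and 1.35% and 1.57%, of all genes. Near-identical tubulin copies share reads, so single tubulins are uncertain.

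Genes that fold tubulin before the cofactors take over were called by edgeR only as higher in PC-3 and CT1258. Of 16 chaperonin and prefoldin genes in PC-3, 7 rose at 12 h and 6 at 24 h and 0 fell, with medians of 0.302 and 0.33. Of 14 in CT1258, 4 rose at each time and 0 fell, with medians of 0.355 and 0.354. Over all genes, 13% and 8.88% rose in PC-3 at 12 h and 24 h, and 22.2% and 16.6% in CT1258. At an adjusted p below 0.05, 1 gene of the list was lower in each of these lines at each time. CCT6A, a chaperonin subunit, rose from 50.2 to 230 CPM at 12 h in CT1258 (log2 2.20 ± 0.077 SE) and by log2 0.93 ± 0.093 SE in PC-3. TCP1, another subunit, rose by log2 0.94 ± 0.091 SE at 12 h in PC-3. LNCaP had 0 of 16 called by edgeR, with medians of 0.451 and 0.312, 9 and 5 genes at an unadjusted p below 0.05, and 2 and 0 at an adjusted p below 0.05.

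The other tubulin cofactor genes gave counts in both directions. In PC-3, 2 of 10 rose and 1 fell at 12 h, and 1 fell at 24 h. The one that fell was TBCC, which completes the folding of the dimer (log2 -0.58 ± 0.10 and -0.76 ± 0.10 SE). In CT1258, 2 of 10 rose and 2 fell at 12 h and 1 each at 24 h. The shares over all genes were 13% higher and 14.6% lower in PC-3 at 12 h, and 8.88% and 10.5% at 24 h. CT1258 had 22.2% and 22.1% at 12 h, and 16.6% and 17.2% at 24 h, so its counts were near or below them. TBCB, a cofactor of alpha tubulin, fell from 116 to 56.1 CPM at 12 h there (log2 -1.04 ± 0.11 SE).

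Depolymerising and severing genes, which include the other stathmins, were called only as higher in PC-3 and CT1258 by edgeR. In PC-3 5 of 11 rose at 12 h and 3 at 24 h. KATNAL1, a relative of the severing enzyme katanin, rose from 15.0 to 47.9 CPM at 12 h (log2 1.67 ± 0.14 SE). CT1258 had 2 of 5 higher at 12 h and 3 at 24 h. Over all genes, 13% and 8.88% were higher in PC-3 at 12 h and 24 h, and 22.2% and 16.6% in CT1258. KIF18A, a mitotic kinesin that shortens microtubules, rose by log2 1.61 ± 0.11 SE at 12 h in CT1258 and by 1.35 ± 0.17 SE in PC-3. KIF18A is a gene of dividing cells, and the proliferation markers given above moved in the same samples.

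The other MAP and plus-end genes were called in both directions. In PC-3 6 of 31 rose and 1 fell at 12 h, and 5 rose and 1 fell at 24 h, with medians of 0.359 and 0.323. The shares over all PC-3 genes were 13% higher and 14.6% lower at 12 h, and 8.88% and 10.5% at 24 h. MAP1A, the relative of MAP1B, rose there from 3.87 to 20.1 CPM at 12 h (log2 2.37 ± 0.17 SE). In CT1258, 5 of 25 rose and 6 fell at 12 h, and 3 rose and 3 fell at 24 h. The shares over all CT1258 genes were 22.2% higher and 22.1% lower at 12 h, and 16.6% and 17.2% at 24 h. Counts of the list in CT1258 were thus near those of all genes or below them. MTUS1, a microtubule-associated tumour suppressor, rose there from 8.16 to 33.2 CPM (log2 2.02 ± 0.14 SE) and EML2 fell from 90.2 to 27.1 CPM (log2 -1.73 ± 0.12 SE) at 12 h.

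Tubulin modification genes gave 3 higher and 3 lower of 19 in PC-3 at 12 h and 4 and 1 at 24 h. In CT1258 3 of 18 rose and 6 fell at 12 h, and 2 rose and 4 fell at 24 h. The shares over all genes were 13% higher and 14.6% lower in PC-3 at 12 h, and 8.88% and 10.5% at 24 h. CT1258 had 22.2% and 22.1% at 12 h, and 16.6% and 17.2% at 24 h. TPGS1, a subunit of the polyglutamylase, fell from 38.2 to 13.9 CPM at 12 h in CT1258 (log2 -1.46 ± 0.19 SE), and TTLL1, its catalytic partner, fell from 4.67 to 1.44 CPM at 12 h in PC-3 (log2 -1.69 ± 0.25 SE).

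TTC5 hands tubulin mRNA to SCAPER and the CCR4-NOT deadenylase. Of 10 such partner genes in PC-3, 1 fell at each time and 0 rose. The gene was CNOT2 (log2 -0.58 ± 0.11 and -0.65 ± 0.11 SE). Of 9 in CT1258, 2 rose and 1 fell at 12 h, and 2 rose at 24 h. The shares over all genes were 13% higher and 14.6% lower in PC-3 at 12 h, and 8.88% and 10.5% at 24 h. CT1258 had 22.2% and 22.1% at 12 h, and 16.6% and 17.2% at 24 h. CNOT6, a deadenylase, rose from 54.2 to 164 CPM at 12 h (log2 1.60 ± 0.082 SE) while CNOT3 fell from 75.7 to 41.4 CPM (log2 -0.87 ± 0.11 SE).

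Around ARHGEF2, 5 of 17 genes of the RhoA pathway rose and 1 fell in PC-3 at 12 h, and 4 rose at 24 h. Their medians were 0.345 and 0.256. The shares over all PC-3 genes were 13% higher and 14.6% lower at 12 h, and 8.88% and 10.5% at 24 h. ANKRD1, a target of mechanical signalling, rose from 0.605 to 7.02 CPM at 12 h (log2 3.52 ± 0.27 SE). MYL9, a myosin light chain, went from 0.774 to 4.55 CPM (log2 2.54 ± 0.29 SE), and LIMK2, a kinase downstream of RhoA, rose by log2 1.22 ± 0.13 SE. Both ANKRD1 and MYL9 are low, so that few reads carry these values. In CT1258 4 of 13 rose at 12 h, and 2 rose and 1 fell at 24 h. Only 5 of the 13 lay above 0 at 12 h, with a median of -0.127, and the 24 h median was 0.0471. At an adjusted p below 0.05, 5 were higher and 3 lower at 12 h, and 4 and 4 at 24 h. The shares over all CT1258 genes at 0.001 were 22.2% higher and 22.1% lower at 12 h, and 16.6% and 17.2% at 24 h. ECT2, another RhoA exchange factor, which acts in cell division, rose there from 110 to 363 CPM at 12 h (log2 1.72 ± 0.090 SE). In LNCaP edgeR called 0 genes of each of these lists. At an unadjusted p below 0.05 there were, at 12 h and 24 h, 6 and 6 of 10 depolymerising and severing genes, 4 and 5 of 28 MAP and plus-end genes, 7 and 6 of 19 modification genes, 7 and 1 of 14 RhoA pathway genes, and 0 of the 10 cofactors and of the 10 TTC5 partners. The share of all genes at that unadjusted p is not given here.

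**Figure D4:**
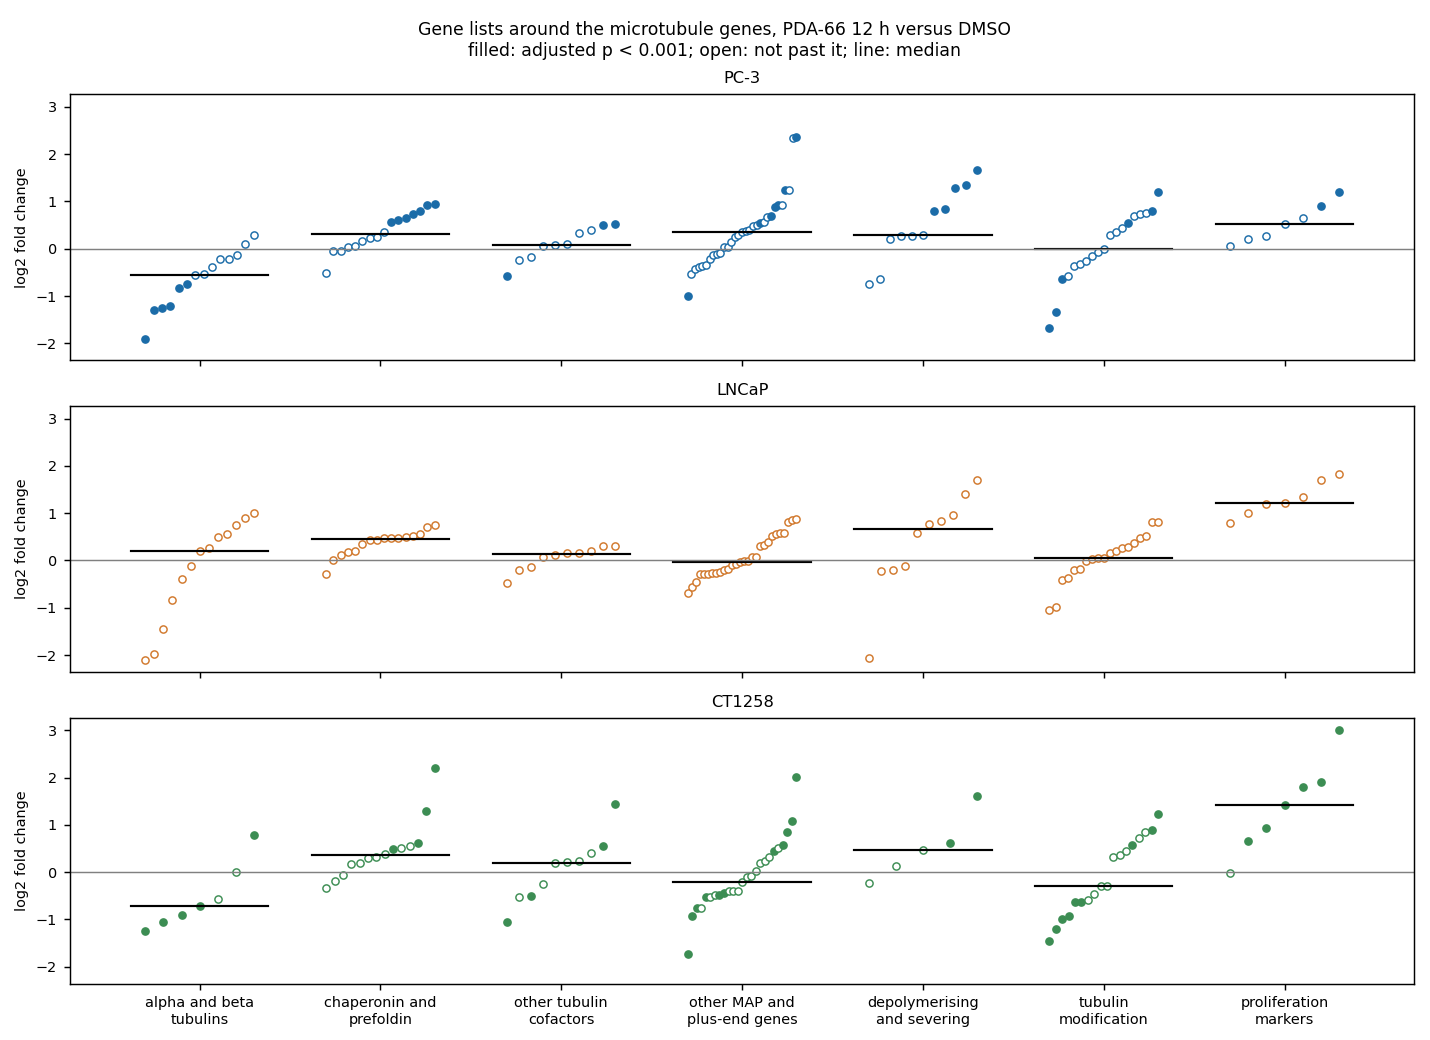
Log2 fold change at 12 h against DMSO of each tested gene in 7 lists, with 1 panel per line, filled points for genes with an adjusted p below 0.001 (edgeR), open points for the others and a black line for the median of the list. The alpha and beta tubulins of PC-3 show 6 filled points below 0 and 0 above, with a median of -0.548, and the chaperonin and prefoldin genes 7 filled points above 0, while all LNCaP points are open.

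The genes whose pattern was most like that of a member were found by Pearson's r of log2 CPM over the 26 samples, after the mean of each line was subtracted, among 8264 genes. The samples share their lines' libraries and the same treatments, so these values describe likeness only. STMN1 was closest to AURKB (r = 0.959), a mitotic kinase, and then to HMGB2 (0.939) and HNRNPA2B1 (0.926). MAPRE1 was closest to PANK2 (0.963), PSMD12 (0.962) and PTGES3 (0.956). ARHGEF2 went with GTPBP2 (0.979), the amino acid carrier SLC1A5 (0.978) and PCK2 (0.957), and TTC5 with C9orf3 (0.936), AKT1 (0.933) and TARS2 (0.929). TBCA was closest to RHOA (0.926), CDC123 (0.904) and TDP2 (0.902). MAP4 had PPM1L (0.879), C2CD3 (0.864) and TCF20 (0.863), and MAP1B had the lowest first value of the 7, with ABCC5 (0.817), HIVEP1 (0.795) and DDX26B (0.77).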

How the data were processed

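Poly(A) RNA of the 3 lines was sequenced as single reads. Per the study's methods, the authors aligned human reads with STAR 2.3.1s to hg19 and canine reads with BWA to CanFam3.1, counted reads per gene and deposited the raw counts, 1 table per line. A gene's reads on either strand may have been counted, since the use of strand is not given in the sources used here. PC-3 DMSO replicate 1 has no column in the table, and 2 of the PC-3 12 h columns carry no clear replicate number. The number of sample columns left unused was 0. Trailing semicolons in 1 PC-3 column were removed.

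Each line was fitted over all its genes with edgeR 4.0.16 (R 4.3.3): filterByExpr, TMM, quasi-likelihood test and Benjamini-Hochberg adjustment, called at an adjusted p below 0.001. The study used the same threshold with edgeR 3.14.0, and its methods name no filter and no kind of edgeR test. It reported more called genes than were called here, in every line and at both times, also in LNCaP. Responses were compared between lines, and untreated human lines with each other, in joint fits (adjusted p below 0.05 and 0.001). The fits were run on simulated data whose planted changes were larger than any member's change with PDA-66. That check set no lower limit for changes found in LNCaP. Changes of the members' size, and the absence of calls in LNCaP, were thus not covered by it. Alternatives were DESeq2 1.42.0, its size factors, limma 3.58.1 voom, no filter, the other threshold, only the groups compared, a replicate block and leaving out each sample. Figures were drawn with matplotlib 3.10.9. Human positions are GENCODE, GRCh37, and promoters RefSeq, GRCh38.p14.

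All 10 members are named. Of each pathway list, at most 3 called genes per line with the largest log2 fold change, at most 4 tubulins, and the 3 genes most like each member were eligible for naming. MAPRE2, MAPRE3, MCM2 and COL1A1 fall outside this rule and were named after their values were seen. Members and lists were chosen with earlier results of these data known. The study's methods call the replicates of a condition independent biological ones. Same-numbered samples did not deviate together (correlation above 0.1 in 0 of 4 pairs in PC-3, and 1 of 9 in each other line), so numbers were not taken as pairs. One marker gene is not reported here.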

Additional observations from a re-analysis of the deposited data

Results flagged for a closer look

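The results in this part were picked out because the response to PDA-66 differed between 2 lines by the test of the difference itself (edgeR, adjusted p below 0.05). Values are log2 differences in response, first line minus second.

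TTC5 differed most widely. PC-3 minus CT1258 was 1.53 at 12 h and 1.13 at 24 h, and LNCaP minus CT1258 was 1.48 at 12 h and 0.76 at 24 h. ARHGEF2 differed between PC-3 and CT1258 at 12 h by 1.23 and between PC-3 and LNCaP at 24 h by 1.24. Leaving out single samples ended the latter call 7 times of 17, once without LNCaP DMSO replicate 3 (0.87, adjusted p = 0.0783).

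STMN1 differed between PC-3 and LNCaP at 12 h by -1.33, and by -1.18 (adjusted p = 0.0518) without PC-3 DMSO replicate 3. MAPRE1 differed between PC-3 and CT1258 at 12 h by -0.52 and between LNCaP and CT1258 by -0.67. The former lay close to the threshold and was lost 15 times of 17 when 1 sample was left out, with an adjusted p of up to 0.144. TBCA differed between PC-3 and CT1258 at 12 h by -1.10. MAP1B differed between LNCaP and CT1258 at 12 h by -0.83.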

How the results depend on the processing

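Of 867 values of single genes under other settings, 759 kept their direction and side of the threshold, 69 gained a call, 15 lost one and 24 changed sign. Of 1685 values with 1 sample left out, the numbers were 1539, 32, 50 and 64. The cause of a change was not tested. STMN3 and MAP7 were below 2 CPM in CT1258, also in its deeper DMSO libraries, with 22 to 27 counts of STMN3 and 3 to 14 of MAP7. The part of depth in these low levels was not tested.

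Members called were 1 (12 h), 1 (24 h) and 0 (24 h against 12 h) in PC-3. DESeq2 gave 2, 3 and 0, limma voom 1, 1 and 1, no filter 2, 2 and 0, an adjusted p below 0.05 3, 4 and 1, and only the groups compared 0, 0 and 0. In LNCaP the count was 0 throughout, but 1 with DESeq2 and 1 with an adjusted p below 0.05 at 12 h, and 3 and 2 with voom at 12 h and 24 h. In CT1258 the counts were 4, 4 and 1: 6, 4 and 2 with DESeq2, 6, 5 and 5 with voom, 6, 5 and 4 with an adjusted p below 0.05, and 4, 2 and 3 with only the groups compared. The untreated human lines differed in 4 members, in 6 with DESeq2 or voom and in 9 with an adjusted p below 0.05. Responses differed at either time in 2 members (PC-3 and LNCaP), 4 (PC-3 and CT1258) and 3 (LNCaP and CT1258), in 3, 7 and 7 with voom and in 0, 1 and 1 with an adjusted p below 0.001.

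The replicate numbers did not pair the samples. With the replicate block the count in PC-3 at 24 h was 0, in CT1258 5, 4 and 1, and in LNCaP 0 throughout, and the log2 fold changes of ARHGEF2 in PC-3 at 24 h (0.013) and MAP4 in CT1258 from 12 h to 24 h (2.1e-05) changed sign.

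With 1 sample left out, counts ran from 0 to 2, 0 to 3 and 0 to 0 in PC-3, were 0 in LNCaP, and ran from 4 to 6, 2 to 5 and 0 to 4 in CT1258. They ran from 3 to 4 for the untreated lines, and for responses from 0 to 3 (PC-3 and LNCaP), 2 to 5 (PC-3 and CT1258) and 3 to 5 (LNCaP and CT1258).

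Other settings turned the sign of 22 further values, none of them past the threshold in the main results. Without the filter they were TBCA at 0.0051 (PC-3, 12 h), TTC5 at -0.00080 (PC-3, 24 h against 12 h), MAP7 at 0.0085 (LNCaP, 24 h), and the differences TTC5 -0.012 (PC-3 minus LNCaP, 12 h) and MAP4 0.023 (LNCaP minus CT1258, 24 h). With DESeq2 size factors and its test, MAP4 in CT1258 from 12 h to 24 h was 0.0011 by both, and the TTC5 difference -0.0024 and -0.0016. With voom, TBCA in PC-3 was 0.010 (24 h) and 0.031 (24 h against 12 h), TTC5 -0.012 and MAP4 in CT1258 0.0070 (both 24 h against 12 h). In LNCaP voom gave STMN3 -0.82, MAP7 -0.092 and TBCD -0.16 at 12 h, and 0.58, 0.079 and 0.12 for 24 h against 12 h. The differences PC-3 minus LNCaP at 12 h were STMN3 0.99, MAP7 0.012 and MAPRE1 -0.088.

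Signs also changed with 1 sample left out, over these ranges. In PC-3 at 12 h: STMN1 -0.14 to 0.25, ARHGEF2 -0.18 to 0.039, TBCA -0.26 to 0.27. At 24 h: MAP1B -0.055 to 0.10, ARHGEF2 -0.17 to 0.053, TBCA -0.30 to 0.24. From 12 h to 24 h: ARHGEF2 -0.047 to 0.082, TTC5 -0.081 to 0.067, TBCA -0.15 to 0.084. In LNCaP at 12 h: STMN3 -0.81 to 0.66, MAP4 -0.18 to 0.0072, MAP7 -0.057 to 0.25, TBCD -0.19 to 0.63. At 24 h: STMN3 -0.26 to 0.063, MAP7 -0.039 to 0.027. From 12 h to 24 h: STMN3 -0.81 to 0.66, MAP7 -0.26 to 0.057, MAPRE1 -0.16 to 0.034, TBCD -0.68 to 0.15. In CT1258: MAP1B -0.24 to 0.034 (24 h), MAP4 -0.018 to 0.026 (24 h against 12 h). Differences in response, PC-3 minus LNCaP: STMN3 -0.55 to 0.95, MAPRE1 -0.050 to 0.23 and TTC5 -0.18 to 0.29 (12 h), TBCA -0.50 to 0.035 (24 h). PC-3 minus CT1258: MAP4 -0.099 to 0.32 (12 h), MAP1B -0.036 to 0.22 (24 h). LNCaP minus CT1258 at 24 h: STMN1 -0.17 to 0.48, MAP4 -0.11 to 0.043.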
